A study of Homo sapiens with 24 samples.

Results

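HAPLN1, the hyaluronan and proteoglycan link protein 1, was followed with 9 genes whose products make, bind or cut hyaluronan, across the 8 culture conditions of HepaRG cells. HepaRG is a human hepatocellular carcinoma line that grows as liver progenitors. The 10 genes were HAPLN1, HAPLN3 and HAPLN4, the proteoglycan genes VCAN and ACAN, the synthase genes HAS1, HAS2 and HAS3, the receptor gene CD44 and the hyaluronidase gene HYAL2. They were chosen by name, and their probes were found through the RefSeq transcript that each spot carries, which gave 15 of the 50683 probes. Of the 10 genes, 8 were among the 24643 that entered the fit. HAPLN4 and HAS2 were not, because no probe of either was well above background on all 3 arrays of any condition. HAPLN1 and VCAN were singled out for their response to Wnt3a in these same arrays, and the study took HAPLN1 forward also because it responded to β-catenin siRNA and FZD8_CRD. All values of these 2 genes are therefore given as a description with no test, and the other 6 are called partners here and were tested.

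RNA was hybridised to 24 one-colour (Cy3) Agilent arrays, 3 for each condition. Cells in serum-free medium were left untransfected and untreated, were electroporated with 80 pmol of control siRNA or of 1 β-catenin siRNA, or were given FZD8_CRD at 300 ng/ml, the recombinant mouse cysteine-rich domain of Frizzled-8, a soluble trap for Wnt ligands. Each of these 4 settings was run with and without recombinant mouse Wnt3a at 200 ng/ml, and stimulation lasted 72 h. The methods describe the replicates as independent cultures. Expression is given on a log2 scale after dividing by the 75th percentile of the array, so a value of 0 is the signal of that percentile. Signals of different probes were compared only to choose the brightest probe of a gene, and were added only in the sums of cell-type markers.

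Hyaluronan is a long unsulphated polysaccharide that synthases at the plasma membrane extrude into the pericellular space. Lecticans such as versican and aggrecan bind it through a globular domain, and link proteins lock that contact into a stable aggregate, best known from cartilage. CD44 anchors the polymer to the cell, and hyaluronidases cut it. In liver, activated stellate cells are a main source of hyaluronan.

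HAPLN1 and VCAN are next to each other on chromosome 5, and ACAN and HAPLN3 on chromosome 15, with no other protein-coding gene between them in RefSeq. The sequence upstream of the neighbours HAPLN1 and VCAN is shown because both were chosen for higher signals with Wnt3a, whose nuclear pathway acts through TCF/LEF factors. These are the 250 bases before the annotated start (RefSeq, GRCh38.p14), 5′ to 3′ on the gene's strand, with matches to the letters CTTTGA or CTTTGT, on either strand, in capitals. HAPLN1 lies on the minus strand (chr5:83720856-83721105) and VCAN on the plus strand (chr5:83471494-83471743).

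HAPLN1: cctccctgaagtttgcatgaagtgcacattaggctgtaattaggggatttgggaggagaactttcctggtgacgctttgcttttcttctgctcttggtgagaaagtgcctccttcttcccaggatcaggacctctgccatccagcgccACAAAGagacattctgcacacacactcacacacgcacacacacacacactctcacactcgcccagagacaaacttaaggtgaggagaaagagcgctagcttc
VCAN: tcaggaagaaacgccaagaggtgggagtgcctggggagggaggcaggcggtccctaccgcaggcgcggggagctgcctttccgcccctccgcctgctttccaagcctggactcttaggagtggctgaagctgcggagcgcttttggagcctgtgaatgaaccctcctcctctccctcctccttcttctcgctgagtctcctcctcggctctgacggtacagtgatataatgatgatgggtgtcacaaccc

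HAPLN1 held 1 match, ACAAAG, the reverse complement of CTTTGT, at position -102 from the start. VCAN held 0 in this window. Of 9 genes searched, HAS3 and HAPLN4 also had a match, and 22.8% of the 35116 promoters in the table had at least 1. The letters are a description of the sequence and do not show that a factor binds there.

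Each array had 58.3% to 66.5% of its spots well above background, and arrays of a condition correlated at 0.984 to 0.996. The 8 arrays of a replicate number shared a slide, with each condition at the same place on the 3 slides, so place and condition cannot be told apart. The gene of β-catenin, CTNNB1, had a mean log2 signal of 3.41 with control siRNA and 0.38 with β-catenin siRNA, and with Wnt3a 3.56 and 0.54. All 8 hepatocyte markers, albumin (ALB) among them, were well above background on all 24 arrays. So were the epithelial and biliary markers CDH1, KRT8, KRT18, KRT19 and KRT7, while EPCAM was on 1. The blood markers PTPRC, CD14 and CD68 and the endothelial markers PECAM1, VWF, CDH5 and KDR were also on all 24, while the blood marker HBB was on 0. Presence above background thus did not separate these cell types. The third FZD8_CRD array stood apart. It correlated at 0.98722 with the other FZD8_CRD arrays and at 0.99417 with the FZD8_CRD + Wnt3a arrays, against 0.98601 and 0.98727 with the latter for the first and second FZD8_CRD arrays. The Wnt3a responses with FZD8_CRD rest on it, and those of HAPLN1 and VCAN and those called are given with and without it. To a smaller extent, the third untreated array also lay nearer the other Wnt3a level (0.98915 with its group and 0.99072 with the Wnt3a arrays). So did the third Wnt3a array (0.9875 with its group and 0.99 with the untreated arrays).

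HAPLN1 moved further across the conditions than any other fitted member. In untreated cells its log2 signals were -5.07, -4.41 and -4.09 on the 3 arrays, and with Wnt3a they were -2.59, -1.65 and -2.15. The groups did not overlap, and Wnt3a was higher on each slide. After control siRNA the values were -3.18, -2.99 and -3.20 without Wnt3a and -2.33, -2.14 and -1.97 with it. Thus control-transfected cells were already above the untreated ones, and Wnt3a brought them to the level of untransfected cells with Wnt3a. After β-catenin siRNA the values were -5.64, -5.79 and -6.13 without Wnt3a, the last being the detection floor, and -5.50, -5.60 and -5.71 with it. These 6 arrays lay at the bottom of the range whether or not Wnt3a was present, and the probe was not well above background on 1 of them. With FZD8_CRD alone the values were -2.54, -2.33 and -5.47, and with FZD8_CRD + Wnt3a they were -5.03, -5.73 and -5.86. The first and second FZD8_CRD arrays were among the high values, and the third was among the low ones with its Wnt3a-treated counterparts.

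**Figure D1:**
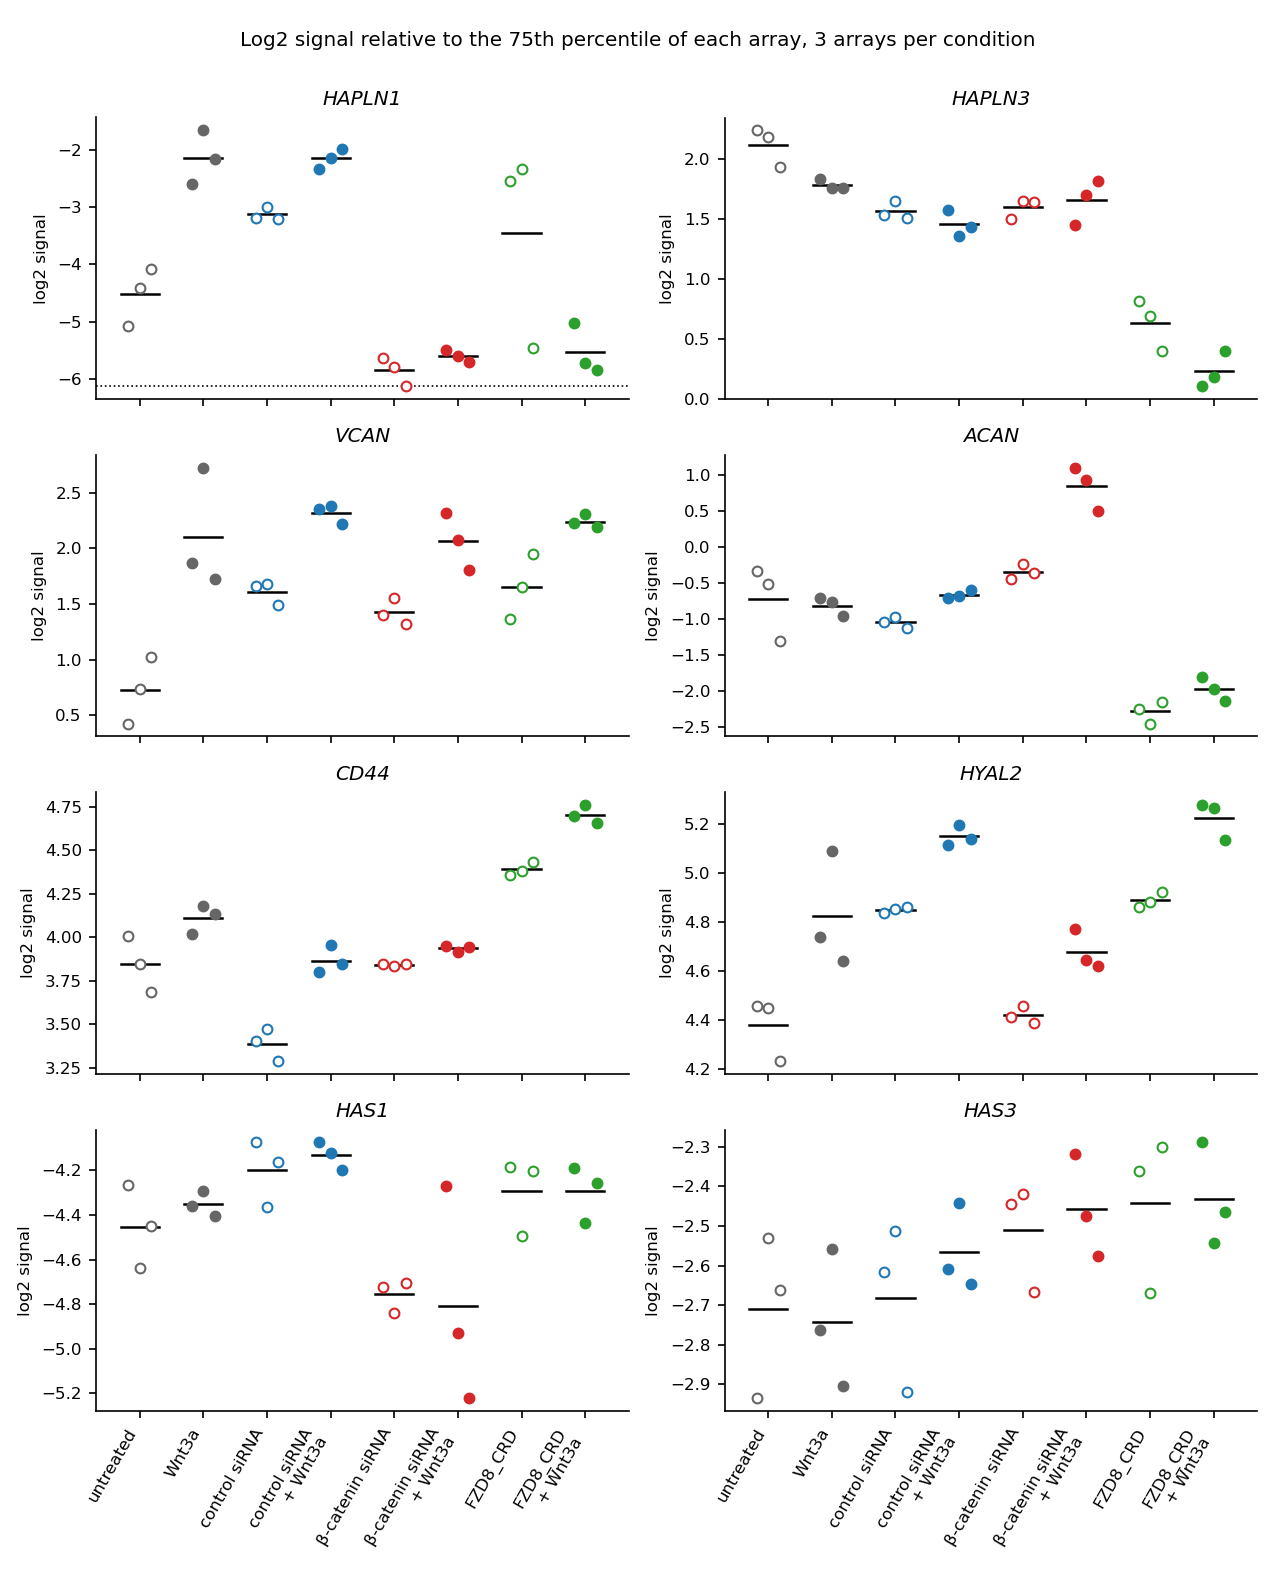
Log2 signal of the 8 fitted members in each of the 8 conditions (x axis), scaled to the 75th percentile of the array (y axis, own range per gene). Each point is an array, filled with Wnt3a, lines are means of 3, and the dotted line is the detection floor of -6.13. HAPLN1 is near the floor with β-catenin siRNA, with and without Wnt3a.

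The Wnt3a response of HAPLN1 was a log2 fold change of 2.39 (SE 0.52), or 5.25-fold, in untransfected cells. It was 0.98 (SE 0.52) after control siRNA and 0.25 (SE 0.52) after β-catenin siRNA, higher on 3 of 3 slides in each setting. In the presence of FZD8_CRD the difference was -2.09 (SE 0.52), lower on 3 of 3 slides, and -3.10 without the third FZD8_CRD array. With Wnt3a in the medium, HAPLN1 was 11-fold lower after β-catenin siRNA than after control siRNA, and 10.6-fold lower with FZD8_CRD than without it. The β-catenin siRNA + Wnt3a arrays lay near the floor, and the probe was well above background on 2 of the 3. These sizes moved with the background correction. With normexp the responses were 1.395 without transfection and -1.034 with FZD8_CRD, and with Wnt3a present the log2 differences were -1.715 between the siRNAs and -1.713 with FZD8_CRD. By mean signal the order was Wnt3a (-2.13, SD 0.47, n = 3), control siRNA + Wnt3a (-2.15), control siRNA (-3.12), FZD8_CRD (-3.45) and untreated (-4.52), then FZD8_CRD + Wnt3a (-5.54), β-catenin siRNA + Wnt3a (-5.61) and β-catenin siRNA (-5.85). The first pair overlapped, as did FZD8_CRD with both of its neighbours, untreated with FZD8_CRD + Wnt3a, and the last 3 conditions with each other. Of the neighbours in this order, control siRNA + Wnt3a and control siRNA were the ones whose arrays did not overlap.

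Without Wnt3a, HAPLN1 differed by a log2 fold change of -2.73 (SE 0.52) between β-catenin siRNA and control siRNA, a 6.64-fold difference seen on 3 of 3 slides. One of the β-catenin siRNA arrays was at the floor, so the size is partly measured against it, and with normexp it was -1.22. As RNA of a whole culture was measured, fewer expressing cells and less RNA per cell cannot be told apart. Control siRNA against no transfection gave 1.40 (SE 0.52), with no overlap. FZD8_CRD against untreated gave 1.08 (SE 0.52), but 2.09 without the third FZD8_CRD array and 0.35 without all arrays of replicate 1.

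VCAN encodes versican, the lectican of loose and provisional matrix. Its log2 signals were 0.43, 0.73 and 1.02 in untreated cells and 1.87, 2.73 and 1.72 with Wnt3a. They were 1.66, 1.68 and 1.49 after control siRNA and 2.35, 2.38 and 2.22 with Wnt3a added. In both settings the Wnt3a arrays lay above all arrays without it. After β-catenin siRNA they were 1.40, 1.55 and 1.32 without Wnt3a and 2.32, 2.08 and 1.80 with it, and with FZD8_CRD 1.37, 1.65 and 1.95 without and 2.23, 2.30 and 2.19 with it. VCAN was thus higher with Wnt3a in these 2 settings too, again with no overlap, whereas HAPLN1 was lower with Wnt3a in the presence of FZD8_CRD. The Wnt3a responses were 1.38, 0.71, 0.64 and 0.58 (each with SE 0.20) without transfection, after control siRNA, after β-catenin siRNA and with FZD8_CRD. The first was 1.07 without the second Wnt3a array, and the last 0.73 without the third FZD8_CRD array. In the absence of Wnt3a, the log2 difference from untreated cells was 0.88 (SE 0.20) with control siRNA and 0.93 (SE 0.20) with FZD8_CRD, or 0.78 without the third array, and no array overlapped with the untreated ones. Between the 2 siRNAs it differed by -0.18 (SE 0.20, 95% interval -0.60 to 0.24).

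HAPLN3, the link protein of many soft tissues, was not called higher with Wnt3a in any setting. Its log2 signals were 2.24, 2.18 and 1.93 in untreated cells, 1.83, 1.76 and 1.75 with Wnt3a, and 0.81, 0.69 and 0.39 with FZD8_CRD. With FZD8_CRD + Wnt3a they were 0.10, 0.19 and 0.40, the lowest of all conditions by mean, overlapping only with FZD8_CRD. After control siRNA they were 1.53, 1.65 and 1.51, and in the other 3 siRNA conditions they lay between 1.36 and 1.82. HAPLN3 fell with FZD8_CRD by -1.48 (SE 0.11, adjusted p = 7e-08), a 2.80-fold difference, and by -1.37 without the third array (adjusted p = 2.1e-07). With Wnt3a present the FZD8_CRD difference was -1.55 (adjusted p = 6.74e-08). HAPLN3 also fell with control siRNA (-0.56, SE 0.11, adjusted p = 0.00145), a call lost without all arrays of replicate 1 (adjusted p = 0.0715) or of replicate 2 (adjusted p = 0.0619). Its Wnt3a response was -0.34 (SE 0.11, adjusted p = 0.082) without transfection, and passed the threshold without the third untreated array (-0.43, adjusted p = 0.0254). With FZD8_CRD it was -0.40 (SE 0.11, adjusted p = 0.0309; -0.52 and 0.00207 without the third array), a call lost without the first FZD8_CRD array (adjusted p = 0.229), the second (0.161), or the first (0.146) or second (0.109) FZD8_CRD + Wnt3a array. In all, 8 of 20 alternatives lost this call, with adjusted p up to 0.697. HAPLN4, the link protein of brain matrix, was well above background on 7 of 24 arrays, spread over 6 conditions with at most 2 of 3 arrays in any.

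ACAN, which encodes aggrecan, the large lectican of cartilage, was higher after β-catenin siRNA, where HAPLN1 was lower. Its log2 signals were -1.04, -0.97 and -1.13 after control siRNA and -0.44, -0.24 and -0.36 after β-catenin siRNA. With Wnt3a they were -0.70, -0.68 and -0.60 after control siRNA and 1.11, 0.94 and 0.51 after β-catenin siRNA. The groups did not overlap in either comparison, and the β-catenin siRNA + Wnt3a arrays were the highest of all 24. The difference between the siRNAs was 0.70 (SE 0.18, adjusted p = 0.0181) without Wnt3a and 1.51 (SE 0.18, adjusted p = 1.51e-05), or 2.85-fold, with it. The first call was lost in 6 of 20 alternatives, with adjusted p up to 0.26. Among these were the fits without the first (adjusted p = 0.0577) or the third (0.0667) control siRNA array or the second (0.0708) or the third (0.0573) β-catenin siRNA array. The second call was kept in all alternatives. Wnt3a raised ACAN after β-catenin siRNA by 1.198 (SE 0.18, adjusted p = 0.0215), a call lost without the first (adjusted p = 0.145) or the third (0.103) β-catenin siRNA array or the first (0.114) or second (0.119) with Wnt3a, and with only the conditions compared (0.0682). In all, the call of this response was lost in 7 of 20 alternatives. The difference between that response and the one after control siRNA was 0.81 (SE 0.26, adjusted p = 0.987).

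Untreated cells had ACAN log2 signals of -0.33, -0.51 and -1.31 and cells with Wnt3a -0.72, -0.77 and -0.96, overlapping (difference -0.10, SE 0.18, adjusted p = 0.869). With FZD8_CRD the values were -2.26, -2.46 and -2.15, and with FZD8_CRD + Wnt3a -1.81, -1.97 and -2.14, below all other conditions. The fall with FZD8_CRD was -1.57 (SE 0.18, adjusted p = 2.11e-06) without Wnt3a, -1.64 without the third array, and -1.16 (SE 0.18, adjusted p = 7.04e-05) with Wnt3a. The 2 neighbouring genes ACAN and HAPLN3 thus both fell with FZD8_CRD, while after β-catenin siRNA ACAN rose and HAPLN3 differed by 0.03 (SE 0.11, adjusted p = 0.943). A second ACAN probe, for another transcript, was well above background on 8 of 24 arrays and was not tested.

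Among the synthase genes, HAS1 was called lower after β-catenin siRNA with Wnt3a present, and HAS3 moved little. HAS1 was read by 3 probes, of which 2 were well above background on 0 arrays and the third, tested one, on all 24 at low signal. That probe gave -4.07, -4.36 and -4.16 after control siRNA and -4.72, -4.84 and -4.70 after β-catenin siRNA. The groups did not overlap, and the difference was -0.56 (SE 0.19, adjusted p = 0.062), or 0.0205 with the replicate block, 0.0314 with only the conditions compared and 0.00658 with normexp, where the difference was -0.33. With Wnt3a the values were -4.07, -4.12 and -4.20 against -4.27, -4.93 and -5.22, and the fall of -0.68 (SE 0.19) was called (adjusted p = 0.0219). That call was lost without the first (adjusted p = 0.0703) or second (0.0631) control siRNA + Wnt3a array or the second (0.095) or the third (0.151) with β-catenin siRNA, with only the conditions compared (0.182), and with normexp, where the difference was -0.21 (adjusted p = 0.0939). In all, 8 of 19 alternatives lost that call, with adjusted p up to 0.326. The Wnt3a responses of HAS1 lay between -0.05 and 0.10 in the 4 settings, and none was called.

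HAS2, a synthase of long hyaluronan chains, was spotted 10 times per array. Of its spots, 2 of 30 were well above background with Wnt3a, 9 of 30 with control siRNA + Wnt3a and 2 of 30 with FZD8_CRD + Wnt3a. No spot was in the 4 conditions without Wnt3a or in β-catenin siRNA + Wnt3a. Spots of an array are not replicates, and no fold change or test is given. HAS3, which encodes the synthase of shorter chains, had log2 signals between -2.93 and -2.29 on all arrays. It was called in none of the 12 comparisons by limma, its Wnt3a responses lying between -0.03 and 0.12, and its second probe was not called either. With FZD8_CRD and Wnt3a against Wnt3a alone it gave 0.31 (adjusted p = 0.100), which became a call with quantile normalization (0.48, adjusted p = 0.0216) and with the deposited values (0.48, adjusted p = 0.0133).

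CD44, the hyaluronan receptor, rose modestly with Wnt3a. Its log2 signals were 4.01, 3.85 and 3.68 in untreated cells and 4.02, 4.18 and 4.13 with Wnt3a, and 3.40, 3.47 and 3.29 after control siRNA and 3.80, 3.95 and 3.85 with Wnt3a added. The Wnt3a arrays were higher on each slide, and neither pair of groups overlapped, although in untransfected cells the closest arrays nearly touched. After β-catenin siRNA they were 3.85, 3.83 and 3.85 without Wnt3a and 3.95, 3.92 and 3.94 with it. With FZD8_CRD they were 4.35, 4.38 and 4.43 without and 4.70, 4.76 and 4.66 with Wnt3a, above every other condition. The Wnt3a responses were 0.27 (SE 0.07, adjusted p = 0.0338), 0.48 (adjusted p = 0.00263), 0.09 (adjusted p = 0.739) and 0.31 (adjusted p = 0.00975) without transfection, after control siRNA, after β-catenin siRNA and with FZD8_CRD. The difference between the responses after the 2 siRNAs was -0.38 (SE 0.10, 95% interval -0.59 to -0.17), with an adjusted p of 0.536, so it was not called. The call after control siRNA was lost without all arrays of replicate 1 (adjusted p = 0.128) or of replicate 2 (adjusted p = 0.166) and with the mean of the 2 probes (adjusted p = 0.0825). The untransfected call was lost without the second untreated (adjusted p = 0.0993), the third untreated (0.0896) or second Wnt3a (0.215) array, with the mean of the 2 probes (0.17, adjusted p = 0.236), with normexp (0.0694) and with only the conditions compared (0.495). In all it was lost in 9 of 20 alternatives, with adjusted p up to 0.899. The FZD8_CRD call was lost without the first (adjusted p = 0.0726) or second (0.0608) FZD8_CRD array or the second FZD8_CRD + Wnt3a array (0.0535), and not without the third FZD8_CRD array (0.34, adjusted p = 0.00426). In all, 6 of 20 alternatives lost the FZD8_CRD call, with adjusted p up to 0.449.

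Without Wnt3a, CD44 fell with control siRNA (-0.46, SE 0.07, adjusted p = 0.000254) and was higher after β-catenin siRNA than after control siRNA (0.45, SE 0.07, adjusted p = 0.000299), which is the reverse of HAPLN1. The fall was lost without all arrays of replicate 1 (adjusted p = 0.058) and with the mean of the 2 probes (-0.22, adjusted p = 0.0619). CD44 rose with FZD8_CRD by 0.54 (SE 0.07, adjusted p = 5.91e-06), or 1.46-fold, and by 0.52 without the third array. With Wnt3a present, control siRNA gave -0.25 (adjusted p = 0.0346), a call lost without any 1 of the 6 arrays compared (adjusted p 0.0654 to 0.104). In all it was lost in 12 of 20 alternatives, with adjusted p up to 0.472. The second CD44 probe, for another transcript, had log2 signals between -3.05 and -2.42 and was called in none of the 12 comparisons by limma. It differed by -0.14 (SE 0.13, adjusted p = 0.61) between the siRNAs, and averaging the 2 probes ended that call (0.15, adjusted p = 0.289), so the probes disagree and the changes of CD44 are those of its brighter probe.

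HYAL2, a cell-surface hyaluronidase that cuts long chains, followed the direction of HAPLN1 between the siRNAs but not with FZD8_CRD + Wnt3a. Its log2 signals were 4.84, 4.85 and 4.86 after control siRNA and 4.41, 4.46 and 4.39 after β-catenin siRNA, and with Wnt3a 5.11, 5.20 and 5.14 against 4.77, 4.65 and 4.62. All β-catenin siRNA arrays lay below their controls. The falls were -0.43 (SE 0.09, adjusted p = 0.00263) and -0.47 (SE 0.09, adjusted p = 0.00101), and of these calls only the first was lost, without all arrays of replicate 1 (adjusted p = 0.124). Untreated cells gave 4.46, 4.45 and 4.23 and Wnt3a 4.74, 5.09 and 4.64, with no overlap. The response was 0.44 (SE 0.09, adjusted p = 0.0074), or 1.36-fold, a call lost without all arrays of replicate 1 (adjusted p = 0.185) or of replicate 2 (adjusted p = 0.468) and with only the conditions compared in the fit (adjusted p = 0.453). With FZD8_CRD the values were 4.86, 4.88 and 4.92 without Wnt3a and 5.28, 5.27 and 5.14 with it, the highest by mean, where HAPLN1 was near its floor.

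The other Wnt3a responses of HYAL2 were 0.30 (SE 0.09, adjusted p = 0.0762; 0.0324 with the replicate block) after control siRNA, 0.26 (adjusted p = 0.295) after β-catenin siRNA and 0.34 (adjusted p = 0.0203) with FZD8_CRD. The last was lost in 7 of 20 alternatives, with adjusted p up to 0.62. Among these were the fits without the first (adjusted p = 0.112) or second (0.0997) FZD8_CRD array or the first (0.0866) or second (0.0801) FZD8_CRD + Wnt3a array. Without the third FZD8_CRD array the response with FZD8_CRD was 0.35 (adjusted p = 0.0131). HYAL2 rose with control siRNA by 0.47 (SE 0.09, adjusted p = 0.000768), a call lost without all arrays of replicate 1 (adjusted p = 0.064), and with FZD8_CRD by 0.51 (SE 0.09, adjusted p = 9.7e-05; 0.49 without the third array). With Wnt3a present, control siRNA gave 0.33 (adjusted p = 0.023), a call lost without the first (adjusted p = 0.142) or the third (0.114) Wnt3a array or the second (0.114) or the third (0.0639) control siRNA + Wnt3a array. In all, 7 of 20 alternatives lost this call, with adjusted p up to 0.335.

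**Figure D2:**
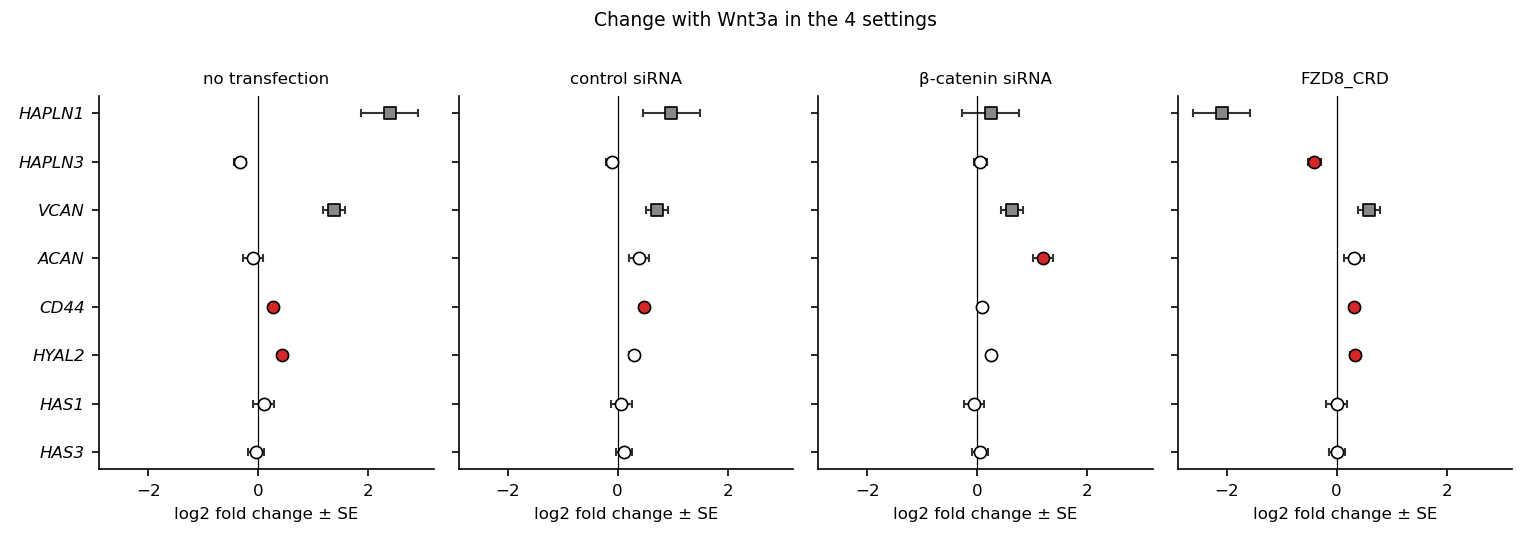
Log2 fold change with Wnt3a (x axis, bars are standard errors, 3 arrays against 3) of the 8 fitted members (y axis) in the 4 settings. Grey squares are described and not tested, red circles are called at an adjusted p under 0.05 over all genes, and open circles are not. HAPLN1 runs from 2.39 without transfection to -2.09 with FZD8_CRD, and VCAN stays above 0 in the 4 panels.

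The partners called are listed for each comparison, and each count is given beside the share of all genes called. These lists do not test a difference between comparisons. With Wnt3a in untransfected cells, 2 of 6 tested partners (VCAN aside), CD44 and HYAL2, were called against 5.6% of all genes. After control siRNA 1 of 6 was called (CD44) against 2.11%, after β-catenin siRNA 1 of 6 (ACAN) against 0.0406%, and with FZD8_CRD 3 of 6 (CD44 and HYAL2 higher, HAPLN3 lower) against 8.29%. With only the conditions compared in the fit the calls with FZD8_CRD were lost (adjusted p = 0.205 for CD44, 0.205 for HYAL2 and 0.252 for HAPLN3), and 0 genes of the whole array were called. None of the 6 was called by limma for a difference between the Wnt3a responses after the 2 siRNAs, against 0.0162% of all genes, and 2 had an unadjusted p under 0.05, as had 3.34% of all genes. None was called for the difference with FZD8_CRD against 0.073%, with 0 under that unadjusted p against 12.7%. By the thresholds of the methods (unadjusted p below 0.01, and a ratio over 1.5 or less than 0.7), 1 (ACAN) and 0 passed, against 0.568% and 2.97% of all genes.

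Without Wnt3a, 3 of 6 partners were called for control siRNA against 22.3% of all genes, with HYAL2 higher, and HAPLN3 and CD44 lower. For β-catenin siRNA against control siRNA 3 of 6 were called against 10.6%, with HYAL2 lower and ACAN and CD44 higher. For FZD8_CRD 4 of 6 partners were called against 41.9%, with CD44 and HYAL2 higher and HAPLN3 and ACAN lower. With Wnt3a present, 2 of 6 partners were called for control siRNA against 9.04%, 3 of 6 for β-catenin siRNA against 10.6% and 4 of 6 for FZD8_CRD against 37.2%. The summed signal of the 8 hepatocyte markers, in multiples of the 75th percentile, moved with the same comparisons. It was 793.4 to 1512 in untreated cells, 381.5 to 415.1 with control siRNA, 480.9 to 633.5 with β-catenin siRNA and 252.8 to 373.6 with FZD8_CRD. With Wnt3a it was 402.1 to 932, 195.4 to 272.3, 287 to 503.2 and 383.4 to 397.4 in the same order. For the 5 mesenchymal markers it was 25.22 to 29.33 in untreated cells, 23.59 to 26.23 with control siRNA, 25.38 to 27.02 with β-catenin siRNA and 26.36 to 33.02 with FZD8_CRD. With Wnt3a it was 31.61 to 40.83, 31.06 to 32.74, 28.14 to 30.27 and 37.27 to 42.95 in that order, without overlap in any of the 4 settings, and of the 5 markers 3, 2, 0 and 4 were called higher. Of these markers, COL1A1 and FN1 are among the genes that the study lists as changed by Wnt3a in these same arrays. In these comparisons without Wnt3a, groups did not overlap for 37.4% of all genes with control siRNA, 36.2% with β-catenin siRNA and 45.7% with FZD8_CRD, and with Wnt3a present for 20.8%, 28.2% and 44%. For the Wnt3a responses the shares were 15.3% without transfection, 23.5% after control siRNA, 22.2% after β-catenin siRNA and 20.5% with FZD8_CRD. The marker sums mostly follow their brightest probes. For hepatocytes these were ALB and SERPINA1 (median log2 7.81 and 7.17, against -4.31 for HNF4A). For the mesenchymal list they were CDH2 and ACTA2 (3.61 and 3.39, against -1.49 for VIM). The part of the marker shifts in the members' changes was not tested.

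**Figure D3:**
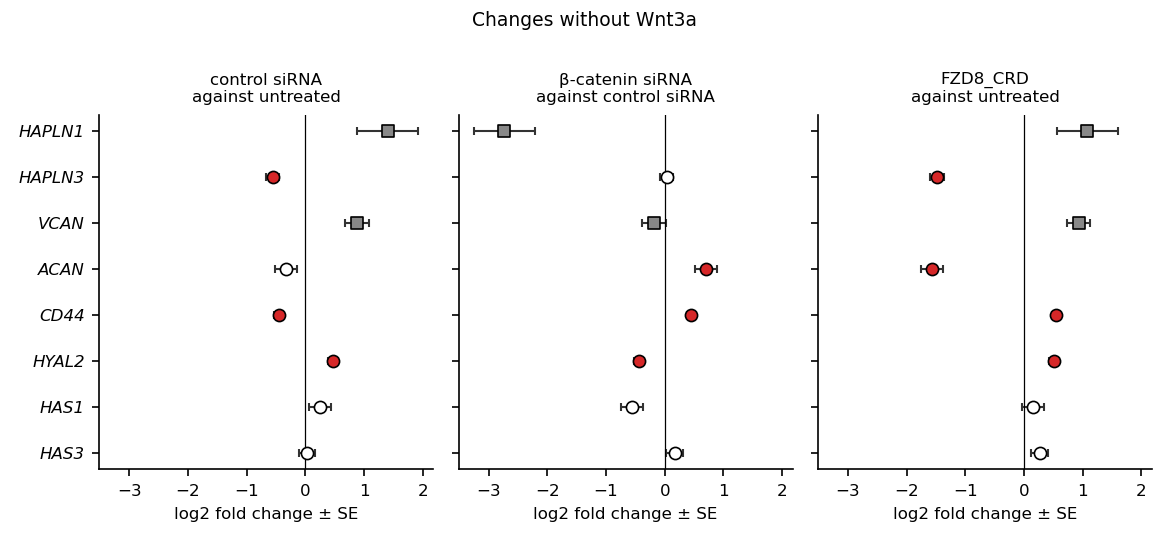
Log2 fold change without Wnt3a (x axis, bars are standard errors, 3 arrays against 3) of the 8 fitted members (y axis) for control siRNA, β-catenin siRNA and FZD8_CRD. Grey squares are described and not tested, red circles are called at an adjusted p under 0.05 over all genes, and open circles are not. HAPLN1 is at -2.73 after β-catenin siRNA and ACAN at 0.70, and with FZD8_CRD the neighbours ACAN and HAPLN3 are at -1.57 and -1.48.

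Whether the partners follow HAPLN1 was described by the correlation of their log2 signals with it over the 24 arrays, which share conditions, slides and scaling and so carry no p. Pearson's r was 0.53 for HAS1, 0.34 for HYAL2, 0.21 for VCAN, 0.17 for HAPLN3, -0.22 for CD44, -0.24 for ACAN and -0.34 for HAS3. Among 24056 genes well above background on at least 12 arrays, the 5th and 95th percentiles of r were -0.44 and 0.52, so of the members HAS1 alone was just outside that range, and with quantile normalization its r was 0.41. For VCAN r was 0.10 without the second Wnt3a array, for HAPLN3 it was 0.072 and for ACAN -0.41 without all arrays of replicate 3, and for HAS3 it was -0.027 with the mean of its 2 probes and -0.45 without the first untreated array. HAS1 ranked 1092nd, HYAL2 3418th and VCAN 6483rd. Over the 18 arrays without FZD8_CRD, r was 0.75 for HYAL2 (rank 863), 0.72 for HAS1 (rank 1011), 0.47 for VCAN, -0.0070 for CD44, -0.21 for HAPLN3, -0.30 for HAS3 and -0.64 for ACAN. HYAL2, HAS1, VCAN and ACAN thus lay further from 0 when the FZD8_CRD arrays were left out, CD44 and HAS3 nearer, and HAPLN3 changed sign. Without the third FZD8_CRD array alone r was 0.37 for HYAL2, 0.23 for VCAN and -0.32 for ACAN.

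**Figure D4:**
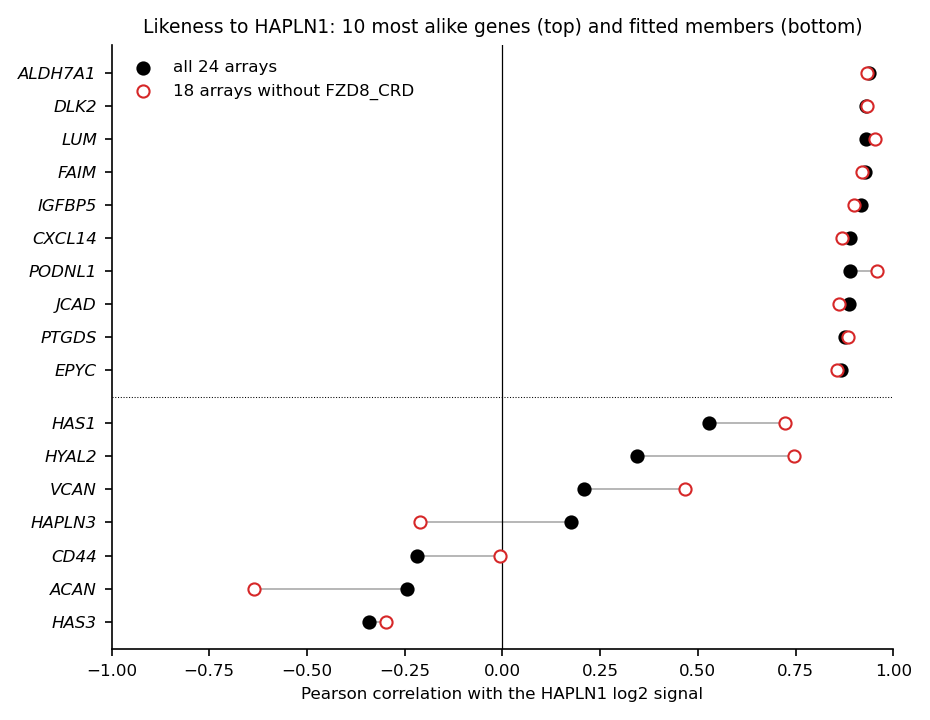
Pearson correlation with the HAPLN1 log2 signal (x axis) of the 10 genes most like it and of the 7 other fitted members (y axis). Filled points use all 24 arrays and open points the 18 arrays without FZD8_CRD. The 10 genes lie between 0.87 and 0.94, and no member is above 0.53 over all arrays.

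The 10 genes most like HAPLN1 were ALDH7A1, DLK2, LUM, FAIM, IGFBP5, CXCL14, PODNL1, JCAD, PTGDS and EPYC, with r from 0.94 to 0.87 over 24 arrays and from 0.98 to 0.88 over the 8 condition means. LUM encodes lumican, a small leucine-rich proteoglycan of the extracellular matrix. It had mean log2 signals of 2.58 (SD 0.30, n = 3) untreated and 3.62 (SD 0.18) with Wnt3a. It was at 2.66 and 3.32 after control siRNA, without and with Wnt3a, and at 1.63 and 1.71 after β-catenin siRNA. With FZD8_CRD it was at 2.57 (SD 0.59) and 2.19 (SD 0.03). As for HAPLN1, the means with Wnt3a and with control siRNA + Wnt3a were the highest and those of both β-catenin siRNA conditions the lowest. ALDH7A1, an aldehyde dehydrogenase, went from 4.71 after control siRNA to 4.29 after β-catenin siRNA, and with Wnt3a from 5.12 to 4.23.

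The rest of the hyaluronan pathway was followed through 8 lists of genes, of which 66 non-members were tested. The lists were chosen with earlier results of these data known. CHPF2, FBN1, TNC, TNFAIP6 and EPYC are among the genes that the study lists as changed by Wnt3a in these same arrays. Their tests with Wnt3a, and the counts that hold them, are therefore not independent of that list. With Wnt3a in untransfected cells 9 of the 66 rose and 0 fell, in a comparison with 5.6% of all genes called. All 9 calls were lost with only the conditions compared in the fit and without all arrays of replicate 1 or of replicate 2, and 3 genes were called higher without the second Wnt3a array alone. Other alternatives gave calls both ways. These were 10 higher and 7 lower without the third untreated array, 12 and 3 without the third Wnt3a array, and 12 and 3 with the replicate block. In the other settings 1 rose and 1 fell after control siRNA (2.11% of all genes), none was called after β-catenin siRNA by limma (0.0406% of all genes, and 11 of the 66 had an unadjusted p under 0.05 against 10.4% of all genes), and with FZD8_CRD 9 rose and 1 fell (8.29%). The 3 alternatives that lost all 9 calls in untransfected cells also left 0 of the calls with FZD8_CRD. None was called for either difference between Wnt3a responses, where 3 and 20 had an unadjusted p under 0.05, against 3.34% and 12.7% of all genes. With the replicate block, 1 was called higher and 2 lower for the difference with FZD8_CRD, and 1 higher in the Wnt3a response after β-catenin siRNA. Without the third FZD8_CRD array, the Wnt3a response with FZD8_CRD had 13 higher and 11 lower, against 19.9% of all genes, and the difference with FZD8_CRD 8 higher and 6 lower against 7.75%. Without Wnt3a, β-catenin siRNA against control siRNA had 3 higher and 15 lower against 10.6% of all genes, control siRNA 16 higher and 11 lower against 22.3%, and FZD8_CRD 21 higher and 15 lower against 41.9%. Without all arrays of replicate 1 these counts were 0 and 6, 2 and 1, and 17 and 9.

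Genes that assemble chondroitin sulfate, the sugar chain carried by versican and aggrecan, gave 5 of 16 higher in untransfected cells with Wnt3a and 0 lower, against 5.6% of all genes called, with a list median of 0.25. These were CHPF2 (0.62, SE 0.09, adjusted p = 0.000653) and CHSY1 (0.49, adjusted p = 0.0047), which extend the chain, and the sulfotransferase genes CHST3 (0.47), CHST11 (0.54) and CHST12 (0.37). CHPF2 is among the genes that the study lists as changed by Wnt3a, so its call and this count are not independent of that list. The 5 calls were lost with only the conditions compared in the fit and without all arrays of replicate 1 or of replicate 2, with adjusted p from 0.11 to 0.702. Without the second Wnt3a array alone CHST3, CHST11 and CHST12 were lost too, the last also without the first untreated array. CHPF2 went from 1.01, 1.12 and 0.84 to 1.59, 1.80 and 1.44, with no overlap. After control siRNA 0 of 16 were called, against 2.11% of all genes, with a median of 0.13. The count was 2 with quantile normalization, with the replicate block and with only the conditions compared. With Wnt3a in the presence of FZD8_CRD (8.29% of all genes called), CHSY1, CHPF2, CHPF and B4GALT7 rose by 0.43, 0.46, 0.46 and 0.33, and by 0.49, 0.50, 0.57 and 0.38 without the third FZD8_CRD array. The call of CHSY1 was lost without the first FZD8_CRD array, and those of CHPF and B4GALT7 without the first or second array of either group.

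Among versican proteases and ligands, FBN1, which encodes fibrillin-1, rose with Wnt3a by 1.18 (SE 0.20, adjusted p = 0.00257) without transfection, 0.77 (adjusted p = 0.0477) after control siRNA and 0.84 (adjusted p = 0.0122; 1.098 without the third array) with FZD8_CRD. The call after control siRNA was lost in 13 of 20 alternatives, including those without any 1 of the 6 arrays, and the call with FZD8_CRD without the first or second FZD8_CRD array or the third with Wnt3a. FBN1 fell with β-catenin siRNA by -0.67 without Wnt3a and -0.68 with it. ADAMTS5, which encodes a protease that cuts aggrecan and versican, rose with Wnt3a by 1.11 (SE 0.32, adjusted p = 0.0489) in untransfected cells, a call lost in 13 of 20 alternatives, with 0.39 by normexp. ADAMTS9 rose with Wnt3a in the presence of FZD8_CRD by 0.45, or 0.47 without the third FZD8_CRD array. TNC, which encodes tenascin-C, rose with Wnt3a in the presence of FZD8_CRD by 2.94 (SE 0.49, adjusted p = 0.00175), from -0.55, -0.48 and 2.48 to 3.55, 3.44 and 3.27. The third FZD8_CRD array was again the one near the Wnt3a-treated arrays, and without it the change was 3.94. The study lists TNC as higher with Wnt3a alone too, although TNC was not called here in untransfected cells.

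In the other lists, the crosslinker gene TNFAIP6 rose with Wnt3a and FZD8_CRD by 2.04 (SE 0.31, adjusted p = 0.000799), by 2.52 without the third FZD8_CRD array, and by 0.78 with normexp. These sizes are partly measured against the floor, since with FZD8_CRD it was at -5.90, -6.13 and -4.58, the second not well above background. The study lists TNFAIP6 as higher with Wnt3a alone too, although it was not called here in untransfected cells. TNFAIP6 was at the floor of -6.13 on the 3 untreated arrays and at -3.38, -3.54 and -3.56 with FZD8_CRD + Wnt3a. GFPT2, an enzyme of hexosamine supply, rose there by 0.86 (SE 0.16, adjusted p = 0.00297), or 0.99 without the third array, and between the siRNAs it fell by -0.76 without Wnt3a and -1.16 with it. CEMIP2, a cell-surface hyaluronidase, rose by 0.36 (SE 0.10, adjusted p = 0.0347) with Wnt3a in untransfected cells, a call lost in 10 of 20 alternatives. SOX6, a chondrogenic transcription factor, fell with Wnt3a after control siRNA by -1.02 (SE 0.20, adjusted p = 0.0131) and with FZD8_CRD by -0.92 (adjusted p = 0.00807), or -1.03 without the third array. These calls were lost in 7 and 6 of 20 alternatives, the first without the first or the third control siRNA array or the second or the third with Wnt3a, and the second without the first or second FZD8_CRD array or the first with Wnt3a.

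EPYC, which encodes epiphycan, a cartilage proteoglycan, was both a cartilage gene of the lists and among the 10 genes most like HAPLN1. Its log2 signals were -2.90, -2.16 and -2.37 in untreated cells and -0.36, -1.10 and 0.09 with Wnt3a, a rise of 2.02 (SE 0.57, adjusted p = 0.0432) that was lost in 11 of 19 alternatives. On all 6 β-catenin siRNA arrays it was not well above background, at the floor of -6.13, against -3.75, -3.23 and -4.18 after control siRNA and -1.86, -2.13 and -2.07 with Wnt3a added. The differences of -2.41 (adjusted p = 0.00893) and -4.11 (adjusted p = 6.51e-05) are measured against that floor and are lower bounds. With FZD8_CRD the values were -2.47, -3.19 and -6.08, split between the arrays as for HAPLN1, and with FZD8_CRD + Wnt3a they were -5.13, -6.12 and -5.42. That response was -1.64 (SE 0.57, adjusted p = 0.0853), and -2.72 (adjusted p = 9.68e-06) without the third FZD8_CRD array, partly measured against the floor. Of 7 hyaluronan crosslinkers, most of them inter-alpha-trypsin inhibitor chains made by hepatocytes, 5 fell with FZD8_CRD (41.9% of all genes called) and 5 with control siRNA (22.3%), 0 and 1 rising. All 8 hepatocyte markers were called lower in both comparisons, and their part in these falls was not tested.

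**Figure D5:**
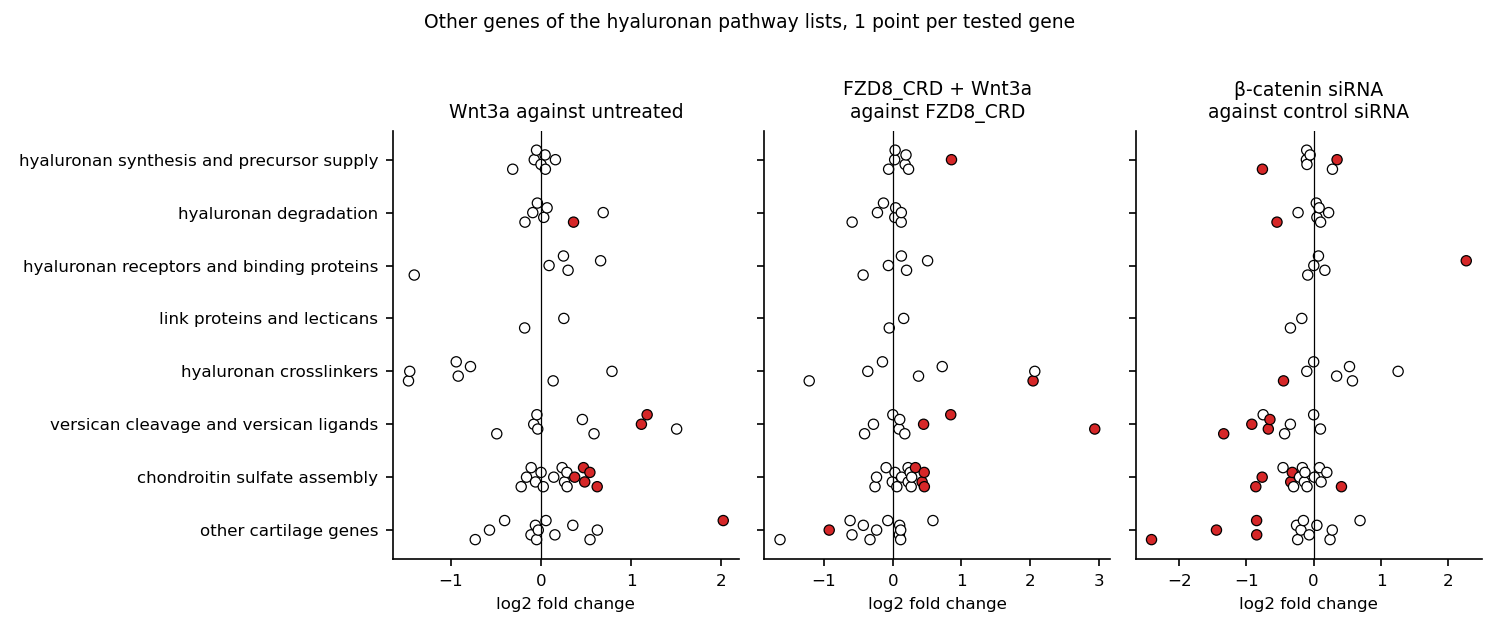
Log2 fold change (x axis) of the 66 tested non-members in the 8 hyaluronan pathway lists (y axis), 1 point per gene, 3 arrays against 3, red where called at an adjusted p under 0.05 over all genes. The chondroitin sulfate list has 5 of 16 genes called higher with Wnt3a in untransfected cells, where 5.6% of all genes were called, and TNC at 2.94 is the largest rise with Wnt3a in the presence of FZD8_CRD.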

How the data were processed

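Per the labels, RNA of HepaRG cells was hybridised to one-colour Agilent arrays and read with Feature Extraction 10.7.3.1. The deposited files give background-corrected, processed intensity per spot. The authors also deposited a table of log2 values for 25443 probes, scaled to the 75th percentile and centred on each probe's median, which was used as an alternative only. Its columns correlated at 0.926 to 0.992 with the centred scanner values, and their medians lay between -0.05 and 0.02. The methods name a smaller array format than the 62976 spots per file.

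Control spots and outlier flags were left out, spots of a probe averaged, and log2 intensity taken after scaling to the 75th percentile (643 to 934 intensity units), with a floor at -6.13. A probe was kept if at least 1 condition had it well above background on its 3 arrays, and the one brightest on average stood for the gene. All 8 conditions entered 1 fit in limma 3.58.1 (R 4.3.3), with Benjamini-Hochberg adjustment over 24643 genes and a threshold of 0.05. The script was tested on simulated data. The number of arrays limits the precision.

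The members and lists were chosen with earlier results of these data known. Named were all members, listed genes called in a Wnt3a response or in a difference between responses, and the 10 genes with a symbol most correlated with HAPLN1. Replicate number is the slide. Of 84 same-numbered pairs, 82 had deviations correlated over 0.1, short of all, so the fit without the block was kept. Their mean correlation was 0.38, against -0.19 for other pairs between conditions. Slide differences therefore remain in the standard errors and adjusted p of that fit. Alternatives were the normalization, background, floor, filter, probe choice, replicate block, samples fitted, thresholds and leaving out arrays. Normexp was run on median, not mean, signal. Planned tests of HAPLN1 and VCAN without Wnt3a were dropped, as those arrays are baselines of the responses that chose the genes.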

Additional observations from a re-analysis of the deposited data

Results flagged for a closer look

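HAPLN1 was higher with Wnt3a on 3 of 3 slides in untransfected cells (log2 fold change 2.39) and lower on 3 of 3 slides in the presence of FZD8_CRD (-2.09), so every slide moved the opposite way in these settings. With FZD8_CRD, the arrays with and without Wnt3a overlapped, and on the third slide they differed by -0.39. The responses differed by -4.48. The difference was not tested, because HAPLN1 was chosen by its Wnt3a response. Without the third FZD8_CRD array it was -5.49, without all arrays of replicate 2 it was -3.65, and with normexp it was -2.43.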

How the results depend on the processing

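Of 35 tested member values followed, 26 were called, 9 of these in all alternatives run, 17 were lost in at least 1, and 7 of the 9 uncalled values were called in at least 1. None changed sign. Counts of members called moved as follows. In untransfected cells, 2 called with Wnt3a became 1 with normexp, 1 with the mean of the kept probes, 0 with only the conditions compared and 0 at the thresholds of the methods, and 0 to 2 when replicates were left out. After control siRNA, 1 became 0 with the mean of probes, 2 with the replicate block, 3 with only the conditions compared and 0 at those thresholds (0 to 1 leaving out replicates). After β-catenin siRNA, 1 became 0 with only the conditions compared (0 to 1), and with FZD8_CRD, 3 became 0 with only the conditions compared and 0 at those thresholds (0 to 4). The differences between responses, 0 called each, gave 1 at those thresholds for β-catenin siRNA, and 0 to 1 each leaving out replicates. Control siRNA without Wnt3a went from 3 to 1 at those thresholds (0 to 4), β-catenin siRNA gave 1 to 3 leaving out replicates and FZD8_CRD went from 4 to 2 at those thresholds. Control siRNA with Wnt3a went from 2 to 1 with normexp, 1 with the mean of probes, 0 with only the conditions compared and 0 at those thresholds (0 to 1). HAPLN1 and VCAN are not in these counts. Genes called over the whole array moved more. With only the conditions compared they went from 1381 to 2, 520 to 1329, 10 to 3 and 2044 to 0 for the Wnt3a responses without transfection, after control siRNA, after β-catenin siRNA and with FZD8_CRD, from 4 to 41 and 18 to 0 for the differences with β-catenin siRNA and FZD8_CRD, from 2605 to 4321 between the siRNAs and 10322 to 6387 for FZD8_CRD without Wnt3a, and from 2227 to 1 for control siRNA with Wnt3a. Leaving out replicates or arrays gave 6 to 6344, 4 to 574, 0 to 96, 0 to 5327, 0 to 11 and 0 to 2987 for the first 6 of these in that order, with 180 for the first without the second Wnt3a array. The replicate block, which is the slide, gave 2824, 1073, 46, 3299, 10 and 149 for the same 6, 4095 between the siRNAs without Wnt3a and 3757 for control siRNA with Wnt3a. Of the members tested in the text, HAS1 between the siRNAs and HYAL2 with Wnt3a after control siRNA passed the threshold with it. The cause was not tested. Testing each kept probe by itself was chosen after seeing the data. HAPLN1 could not be followed on probes well above background on all 24 arrays, nor HAS1 in the deposited table.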
